A study of Homo sapiens with 4 samples.

Results

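The comparison described here set a single naive library of B3GALT5-knockout (KO) cells in 2iLAF medium against a single naive library of wild-type (WT) cells in 5iLAF medium, both of the established human embryonic stem cell line H9. Its members were the autosomal CpG cytosines, each strand counted apart, that had at least 10 reads in both libraries. There were 725921 of them, out of 2824978 cytosines listed in any of the 4 libraries of the study on chromosomes 1 to 22 and X. They filled 40983 regions of 1 kb with at least 5 such cytosines. The study measured DNA methylation by bisulfite sequencing of captured DNA in WT and KO cells in the primed state (basal medium) and in WT and KO cells after conversion to the naive state. The KO cells carried the genotype B3GALT5-/- in both states. The naive libraries differed in genotype and in medium at once, so the effects of the 2 cannot be told apart. Each group held 1 library, so no difference below has a replicate check, and the labels do not say whether the KO line was 1 clone.

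B3GALT5 is a galactosyltransferase that extends globoside to the globo-series glycosphingolipids found on the surface of primed human pluripotent cells. Naive human pluripotent cells resemble the cells of the early embryo before implantation and carry less CpG methylation than primed cells, and inhibition of the MEK-ERK pathway is known to lower methylation in culture. In primed cells most of the genome is heavily methylated, many promoters of germline genes included, while CpG-rich promoters of developmental regulators are kept low. 5iLAF combines kinase inhibitors with LIF, activin A and FGF2; the labels give no composition for 2iLAF.

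The KO naive library was read more deeply, with a median of 13 reads per listed autosomal cytosine against 8 in the WT naive library, and over the members themselves the medians were 23 and 16 reads. No table lists a cytosine with 0 methylated reads, so all levels are those of cytosines with some methylation and levels near 0 are raised by this selection. The lowest level that can be listed is higher where reads are fewer, and so tends to be higher in the WT than in the KO naive library. Of the members, 84.5% lay on the minus strand. Levels are the percentage of methylated among informative reads, and differences are KO minus WT in percentage points throughout. Genes were reached through RefSeq promoter sequences, whose CpG spacing was matched to the listed cytosines; 3420 autosomal genes had a start placed in this way and 1990 had at least 5 members within 1 kb of it. B3GALT5 was not among them, so its locus could not be used to check the knockout label.

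The promoters of 4 of the genes whose starts differed most are shown first, since they let the CpGs behind the values be seen. They are the 250 bases upstream of the RefSeq start (GRCh38.p14), 5′ to 3′ on the strand of the gene, with every CpG in capitals that had at least 10 reads in both naive libraries; they were chosen after their values were known. SYCE1L, whose product resembles a protein of the synaptonemal complex, was placed on the plus strand at chr16:77233055-77233304 (hg19), and KAZN, which encodes the junction-associated protein kazrin, on the plus strand at chr1:15255986-15256235. RCAN2, a regulator of the phosphatase calcineurin, was placed on the minus strand at chr6:46293389-46293638, and GALNT15, a glycosyltransferase that starts mucin-type O-glycans, on the plus strand at chr3:16215937-16216186.
SYCE1L: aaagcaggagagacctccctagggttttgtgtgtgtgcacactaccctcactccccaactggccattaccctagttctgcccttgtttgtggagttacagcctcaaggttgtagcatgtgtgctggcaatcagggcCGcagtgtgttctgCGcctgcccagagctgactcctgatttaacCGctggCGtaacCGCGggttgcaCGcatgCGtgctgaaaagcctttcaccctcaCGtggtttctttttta
KAZN: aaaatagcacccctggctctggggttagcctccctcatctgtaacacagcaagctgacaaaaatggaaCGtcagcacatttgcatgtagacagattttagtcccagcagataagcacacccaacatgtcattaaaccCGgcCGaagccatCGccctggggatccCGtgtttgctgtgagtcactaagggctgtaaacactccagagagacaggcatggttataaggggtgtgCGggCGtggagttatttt
RCAN2: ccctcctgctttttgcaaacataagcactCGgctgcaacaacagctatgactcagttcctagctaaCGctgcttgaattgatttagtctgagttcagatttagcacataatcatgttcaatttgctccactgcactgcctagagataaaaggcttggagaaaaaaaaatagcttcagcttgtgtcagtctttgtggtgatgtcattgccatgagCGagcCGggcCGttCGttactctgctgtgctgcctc
GALNT15: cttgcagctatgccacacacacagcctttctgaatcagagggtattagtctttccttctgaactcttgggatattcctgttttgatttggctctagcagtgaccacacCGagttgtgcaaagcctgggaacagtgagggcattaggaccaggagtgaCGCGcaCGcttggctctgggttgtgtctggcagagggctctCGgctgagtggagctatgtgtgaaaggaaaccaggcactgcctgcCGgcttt
In the SYCE1L promoter all 9 CpGs were measured, and their mean level was 34.04% in WT and 72.0% in KO naive cells. All 7 CpGs of the KAZN promoter were measured, at 22.03% in the WT and 54.3% in the KO naive library. The order was the opposite in RCAN2, where the 6 CpGs stood at 69.2% in the WT and 19.9% in the KO naive library. GALNT15 followed RCAN2, with 6 CpGs at 82.5% and 41.7%. The single CpGs of RCAN2 ranged from 51.5 to 87.9% in WT and from 15.4 to 24.1% in KO naive cells, so these ranges did not overlap. RCAN2 was shown for its large difference, so this gap follows in part from the choice. The cytosines of SYCE1L, RCAN2 and GALNT15 were read on the minus strand alone, so the plus strand gives no check of them.

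Over all members the libraries were close. The mean level was 53.6% ± 27.7 (SD over cytosines) in the WT and 54.5% ± 26.5 in the KO naive library, and the mean difference was 0.873 points ± 21.02, with a median of 0. The KO level was higher at 49.6% of the cytosines (Wilson 95% interval 49.5 to 49.7%, counting error only) and lower at 48.9%. Over the 1 kb regions the mean difference was 0.372 points ± 12.3, and 62.1% of the regions were within 10 points of each other. The mean stayed positive in all 9 other settings tried but was 0.236 points with a minimum of 5 reads and 1.67 points over the cytosines that also had 10 reads in both primed libraries.

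The distributions also differed in shape. Cytosines at 90% or above made up 11.99% of the members in the WT and 7.43% in the KO naive library, and the share between 20 and 80% was 61.4% in WT and 64.8% in KO naive cells. These shares depend on read depth: with 10 reads drawn per cytosine in each library, the shares at 90% or above were 18.6% in the WT and 16.8% in the KO naive library, and the SDs were 27.1 and 25.9 points. At the low end single cytosines and regions had opposite orders. Of the cytosines, 16.2% were at 20% or below in the WT library and 15.1% in the KO library (16.03% and 14.2% with 10 reads drawn), while of the 1 kb regions 9.20% were at 20% or below in WT and 12.9% in KO naive cells.

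**Figure D1:**
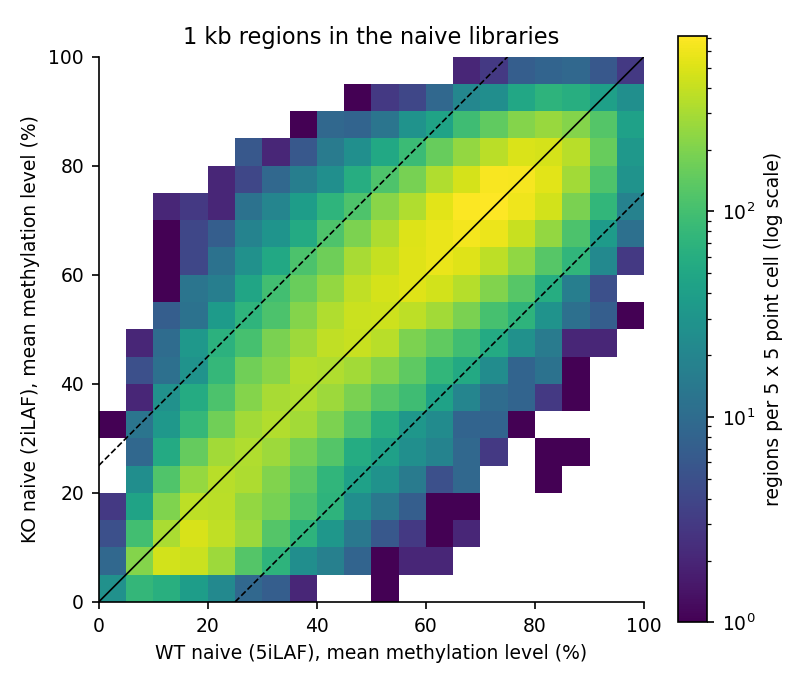
Mean methylation level of the 40983 regions of 1 kb in the WT naive library (x axis, %) and the KO naive library (y axis, %), with the number of regions per cell of 5 by 5 points on a log colour scale. The solid line marks equal levels and the dashed lines a difference of 25 points; 4.99% of the regions lie on or outside the dashed lines, and most stay near the solid line.

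The level of cytosines in the primed cells went with the direction of their mean naive difference. The primed libraries take no part in the KO-minus-WT naive difference, so they were used to bin the 396398 members that had at least 10 reads in both of them. Where the mean primed level was under 10%, the naive level was 17.0% in WT and 11.95% in KO cells, a difference of -5.02 points ± 13.3 (SD over 6055 cytosines). The difference was -4.37 points at a primed level of 10 to 20%, -2.81 points at 20 to 30% and -0.57 points at 40 to 50%. It was 0.36 points at 50 to 60%, 2.11 points at 70 to 80% and 2.84 points ± 20.1 at 90 to 100% (166742 cytosines), where the naive levels were 66.2% in WT and 69.0% in KO cells. The difference thus went up from bin to bin through all 10 bins. On average, sites with little methylation in primed cells were lower, and sites with much were higher, in KO than in WT naive cells. Single sites went both ways. At a primed level under 10%, 63.8% of the cytosines were lower and 35.8% higher in KO naive cells. At 90 to 100%, 53.4% were higher and 45.2% lower.

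The order of the bins was the same with 10 reads drawn per cytosine, from -5.32 to 2.69 points, and with unlisted cytosines filled in at 0 methylated reads, from -4.10 to 2.96 points. With at least 20 reads the differences also went up through all 10 bins, from -3.62 to 3.31 points, but those of the low bins were smaller, with -2.70 points at 10 to 20% and -1.29 points at 20 to 30%. The bin at 40 to 50% then stood at 0.58 points. With bins set by the WT primed library alone, the difference was -3.86 points at 0 to 20% and 2.68 points at 80 to 100%; with bins set by the KO primed library it was -4.30 and 2.75 points. The strands showed the same order with different sizes at the low end: at a primed level of 0 to 20% the difference was -5.40 points on the minus strand (13433 cytosines) and -2.09 points on the plus strand (4325 cytosines), and at 80 to 100% it was 2.73 and 3.01 points. The SD over single cytosines was larger than the mean difference in every bin. Depth differed along the bins, with median reads of 26 in WT and 41 in KO at a primed level under 10%, against 17 and 26 at 90 to 100%.

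**Figure D2:**
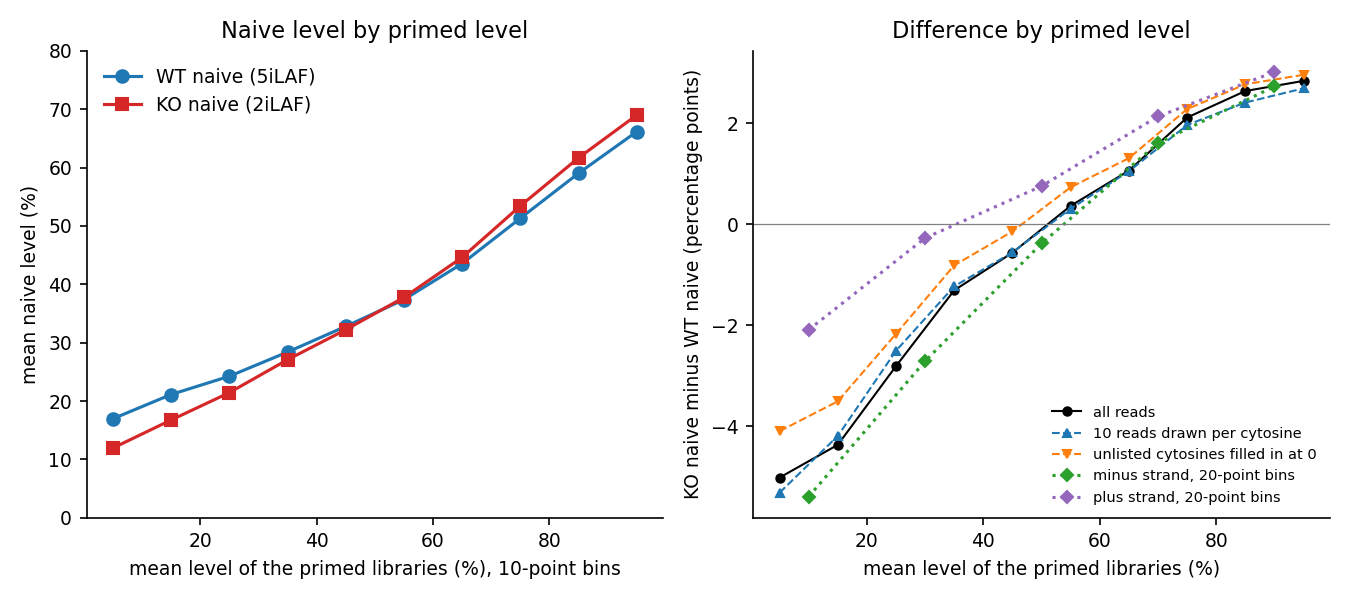
Left, mean naive level (%) of WT and KO cells in 10 bins of the mean primed level (%); the lines cross between 40 and 60%. Right, the KO-minus-WT difference (percentage points) in the same bins with all reads, with 10 reads drawn per cytosine and with unlisted cytosines filled in, and in 5 bins for each strand alone; every line goes up from left to right.

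At low primed levels the size of this pattern differed between classes of CpG density around a site. Density was counted as the measured CpGs within 250 bp. Among members at a primed level under 20%, the difference was -2.31 points with 1 to 4 CpGs (2234 cytosines), -5.28 points with 10 to 19 and -7.16 points with 20 to 29 (3560 cytosines), and -4.01 points with 30 or more. Among members at a primed level of 80% or above it lay between 2.60 and 3.82 points in all 5 classes of density. Over 1 kb regions the same contrast was seen: the 667 regions at a primed level of 0 to 20% differed by -6.37 points ± 8.47 (SD over regions), and the 6082 regions at 90 to 100% by 2.74 points ± 11.5. These region values used all reads and no filling in.

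All 22 autosomes had a higher mean in KO naive cells, the smallest gap being 0.223 points (chromosome 15) and the largest 2.33 points (chromosome 21). On each of them the mean of the members at a primed level under 20% was lower in KO cells, with differences of -0.19 points on chromosome 21 and of -3.58 to -5.70 points on the other 21. The mean of the members at 80% or above was higher by 1.95 to 4.01 points. The ratio of reads between the libraries, relative to its genome-wide median, lay between 0.972 and 1.04 on each autosome. Chromosome X, which was not part of the members, had a mean difference of 0.018 points over 24184 cytosines.

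**Figure D3:**
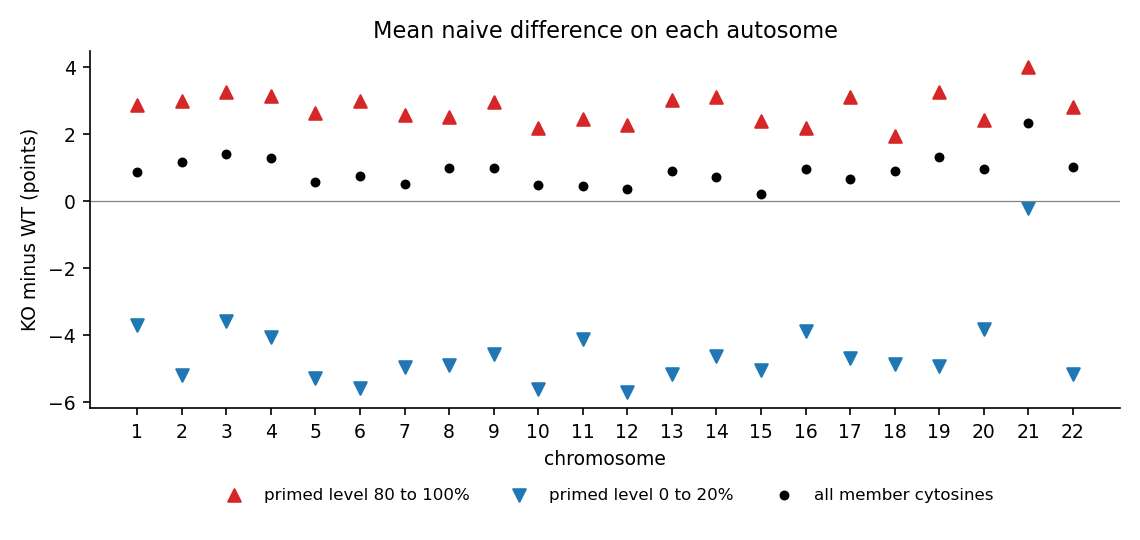
Mean KO-minus-WT naive difference (percentage points, y axis) on each of the 22 autosomes (x axis) for all members, for members at a primed level of 80 to 100% and for members at 0 to 20%. The first 2 are above 0 and the last below 0 on every autosome; chromosome 21 has the highest mean, 2.33 points, and the low-primed mean closest to 0, -0.19 points.

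In windows of 5 Mb with at least 500 members, the mean difference was 0.823 points ± 1.46 (SD over 452 windows) and ranged from -3.06 to 6.25 points. The window on chromosome 5 at 140 to 145 Mb, which holds the clustered protocadherin genes of neuronal cell recognition, stood at 44.7% in the WT and 50.7% in the KO naive library, a difference of 5.96 points over 4859 cytosines. It held 198 regions, of which 10 passed the rule of size described next as higher and 2 as lower, against 2.79% and 1.99% of all regions. At the 12 protocadherin starts tested there the direction was mixed, with 7 lower and 5 higher and a median of -3.22 points. PCDHB16 was the start among them that passed the rule, at 46.6% ± 14.7 in the WT and 11.7% ± 3.01 in the KO naive library (6 cytosines). The lowest window, on chromosome 10 at 100 to 105 Mb, went from 42.7% in WT to 39.6% in KO naive cells with 0 of its 114 regions higher and 6 lower; these windows were picked for their values.

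Single regions were then ranked by size alone, with no p-value. A region was called where its mean differed by 25 points or more and 80% or more of its cytosines shared that direction. By this rule 1142 of 40983 regions (2.79%) were higher and 817 (1.99%) were lower in KO naive cells. The threshold cut a continuous slope: 1092 regions were 25 to 30 points apart and 2203 were 20 to 25 points apart. The regions called higher had a median level of 37.1% in the WT and 69.5% in the KO naive library, and those called lower 65.4% and 32.8%. Of 431 higher regions with primed values, 80.3% were at 80% or above in primed cells and 0 were at 20% or below, against 57.2% and 3.22% of all regions. Of 203 lower regions, 40.9% were at 80% or above and 9.85% at 20% or below.

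Among regions with at least 10 cytosines, the largest gap with KO above WT was at chr10:38691001-38692000, where 34 cytosines stood at 13.5% ± 6.03 in the WT and 73.0% ± 12.1 in the KO naive library. The primed levels there were 88.0% in WT and 88.4% in KO cells, so the WT naive library was the one that stood apart. The adjacent region had 28.6% in WT and 67.3% in KO naive cells. At chr22:20779001-20780000 the level was 28.8% ± 10.4 in WT and 81.1% ± 12.8 in KO naive cells over 13 cytosines, with primed levels of 98.0% and 97.0%. At chr10:124639001-124640000, at the start of FAM24B, it was 27.2% ± 12.9 and 74.8% ± 8.99 over 26 cytosines. At chr14:65009001-65010000, about 2.04 kb downstream of the start of HSPA2, a heat shock protein of the testis, it was 23.7% ± 12.04 and 69.8% ± 10.4, with primed levels of 90.6% and 91.4%. The 10 largest gaps of this kind ran down to 43.5 points.

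The largest gap with WT above KO was at chr13:114054001-114055000, where 11 cytosines stood at 83.6% ± 7.84 in the WT and 24.4% ± 18.3 in the KO naive library. At chr1:32237001-32238000 the level was 54.7% ± 15.2 in WT and 4.52% ± 1.95 in KO naive cells over 10 cytosines, with 5.84% in KO primed cells. At chr8:25906001-25907000 it was 48.3% ± 19.1 and 8.95% ± 5.31, with primed levels of 11.9% in WT and 14.4% in KO cells, so here too the WT naive library was the one that stood apart. At chr2:114036001-114037000, at the start of PAX8, a regulator of thyroid and kidney development, it was 65.1% ± 21.99 and 26.2% ± 13.9 over 12 cytosines. The 10 largest gaps of this kind ran from -38.9 to -59.2 points. Of the 20 regions ranked highest in the 2 directions, the one at chr10:38691001-38692000 had at least 3 cytosines on each strand.

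The strands of a region are read from separate DNA strands, which gave a check of single regions within each library. In the 9082 regions with at least 3 members on each strand, the levels of the strands went together, with a Pearson r across regions of 0.688 in WT and 0.784 in KO naive cells. The KO-minus-WT difference did so weakly, with r = 0.123. The 314 regions that passed the rule as higher on the minus strand, by a mean of 33.02 points, had a mean of 5.53 points on the plus strand, and 62.7% of them were above 0 there, against a mean of 1.29 points and 54.2% over all 9082 regions. The 178 regions lower on the minus strand, by a mean of -31.6 points, had -2.44 points on the plus strand, and 53.4% of them were below 0, against 45.8% of all. A difference of at least 25 points in the same direction on both strands was found in 41 regions for KO above WT and in 14 for WT above KO, and in opposite directions in 12. On the minus strand alone 339 of these regions were higher by at least 25 points and 194 lower. On the plus strand alone the counts were 424 and 239, so most differences of this size were reached on 1 strand and not on the other. The cytosines of the strands need not be of the same CpGs, and 3 per strand were enough. How far this lowers the likeness of the strands was not tested. Whether repeated reads of few molecules play a part was not tested, since the handling of duplicate reads is not given in the sources used here.

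**Figure D4:**
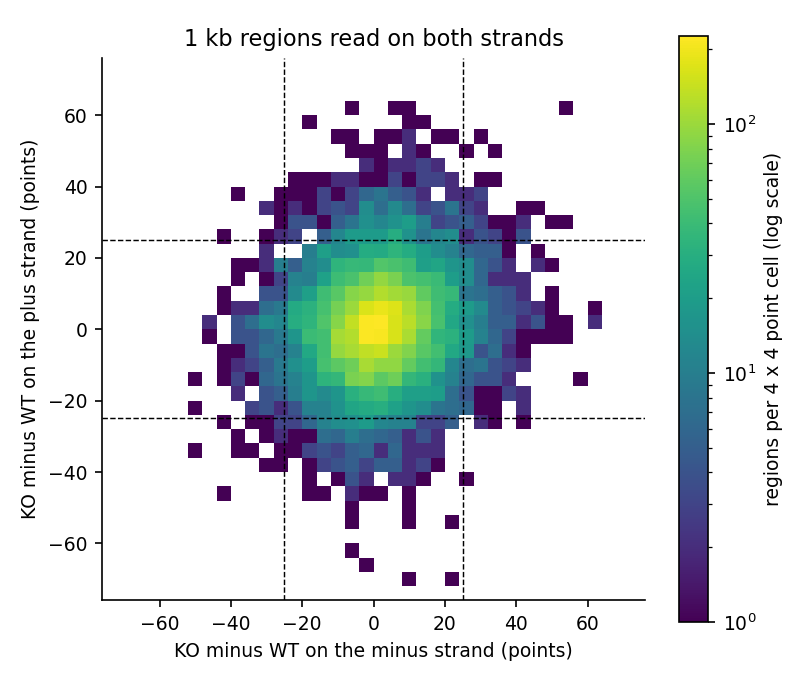
KO-minus-WT naive difference (percentage points) of the 9082 regions with at least 3 cytosines on each strand, minus strand on the x axis and plus strand on the y axis, with the number of regions per cell of 4 by 4 points on a log colour scale. Dashed lines mark 25 points; the cloud is nearly round, and the upper right corner holds 41 regions, the lower left corner 14 and the other corners 12.

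Among the 55 regions with at least 25 points on both strands, the one at chr10:38691001-38692000 was first, with 13.6% in WT and 68.1% in KO naive cells on the minus strand and 13.5% and 75.7% on the plus strand. At chr11:71623001-71624000 the levels were 17.8% and 69.2% on the minus strand and 35.9% and 67.4% on the plus strand. The start of KAZN also differed by at least 25 points on both strands, with 37.4% in WT and 79.3% in KO naive cells on the minus and 19.3% and 47.1% on the plus strand. In the other direction, the region at the start of MYO15B, an unconventional myosin gene, stood at 31.6% and 6.23% on the minus and at 36.9% and 8.21% on the plus strand. The region at the start of CHN2, which encodes a GTPase-activating protein for Rac, stood at 66.3% and 39.8% on the minus and at 65.03% and 38.3% on the plus strand.

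Gene starts were measured as the mean over members within 1 kb. Over all 1990 the median difference was -3.45 points, with 62.0% of the starts below 0, and the median level was 32.1% in WT and 29.6% in KO naive cells. By the same rule of size, 35 starts (1.76%) were higher and 46 (2.31%) were lower in KO naive cells. Which direction had more calls depended on the setting: 20 were higher and 15 lower with 20 reads (57.1% of the calls higher, against 43.2%), 25 and 23 with at least 12 matched CpGs, and 45 and 41 with unlisted cytosines filled in. The order by primed level held for starts as well: the 104 at a primed level of 0 to 20% had a mean difference of -7.53 points ± 8.61 (SD over starts), with 89 of them below 0, and the 512 at 80 to 100% had 2.98 points ± 11.02. The start values by primed level also used all reads and no filling in. Of the named starts KAZN had at least 3 cytosines on each strand, and the other 24 were read on the minus strand alone.

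Among the higher starts, SYCE1L led with 30.9% ± 13.0 in WT and 73.6% ± 11.9 in KO naive cells (SD over 15 cytosines), and KO primed cells had 95.4%. ZNF350-AS1, an antisense transcript of a zinc finger gene, followed with 26.1% ± 15.2 and 61.7% ± 11.9 over 24 cytosines. At the start of KAZN the level was 27.7% ± 18.6 in WT and 62.0% ± 20.6 in KO naive cells, with primed levels of 86.9% and 81.6%. IL1RL2, the receptor for interleukin-36, stood at 22.8% ± 22.3 and 56.3% ± 14.8, with primed levels of 79.9% and 92.5%. At QNG1, a glycosylase of queuosine salvage, 27 cytosines stood at 26.9% ± 14.8 and 57.4% ± 18.1, with primed levels of 87.7% and 95.5%. In these genes the KO naive level lay between the WT naive and the primed levels. AGBL4, a carboxypeptidase that trims polyglutamate chains of tubulin, stood at 31.4% ± 15.3 and 64.7% ± 14.3, and CMTM2, a chemokine-like gene of the testis, at 52.4% ± 20.8 and 82.0% ± 14.1. At the last 2 genes the primed libraries differed in the same direction, with 29.7% in WT and 87.4% in KO for AGBL4 and 18.7% and 87.2% for CMTM2. CALCRL-AS1, PRR23E and LOC105371082 differed by 34.9, 33.03 and 31.4 points.

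Among the lower starts, RCAN2 led with 63.7% ± 20.7 in WT and 27.2% ± 14.6 in KO naive cells over 14 cytosines, with primed levels of 55.5% and 59.2%. GSC-DT, the divergent transcript beside the gastrulation gene GSC, stood at 52.2% ± 24.4 and 15.8% ± 10.6. GALNT15 stood at 81.7% ± 16.3 and 46.7% ± 15.3 over 12 cytosines. MYH14, a non-muscle myosin heavy chain, shares its window with LOC124904746 and stood at 67.6% ± 17.6 and 38.8% ± 11.5, with primed levels of 89.5% and 60.5%. TBX5, a regulator of heart and forelimb formation, stood at 43.6% ± 24.2 and 15.2% ± 10.3 over 21 cytosines. Inside the 250 bases upstream of the TBX5 start, 3 cytosines went the other way, with 10% in WT and 31.9% in KO naive cells. HOXD12, a homeobox gene of limb patterning, stood at 40.6% ± 14.2 and 12.5% ± 11.5, and KO primed cells had 7.72%. ANXA6, LOC105372908 and LOC124905135 differed by -27.5, -32.0 and -30.2 points. With unlisted cytosines filled in at 0, TBX5 and LOC105372908 no longer passed the rule: TBX5 was at -21.1 points, and LOC105372908 was at -26.1 points with fewer than 80% of its cytosines in that direction.

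**Figure D5:**
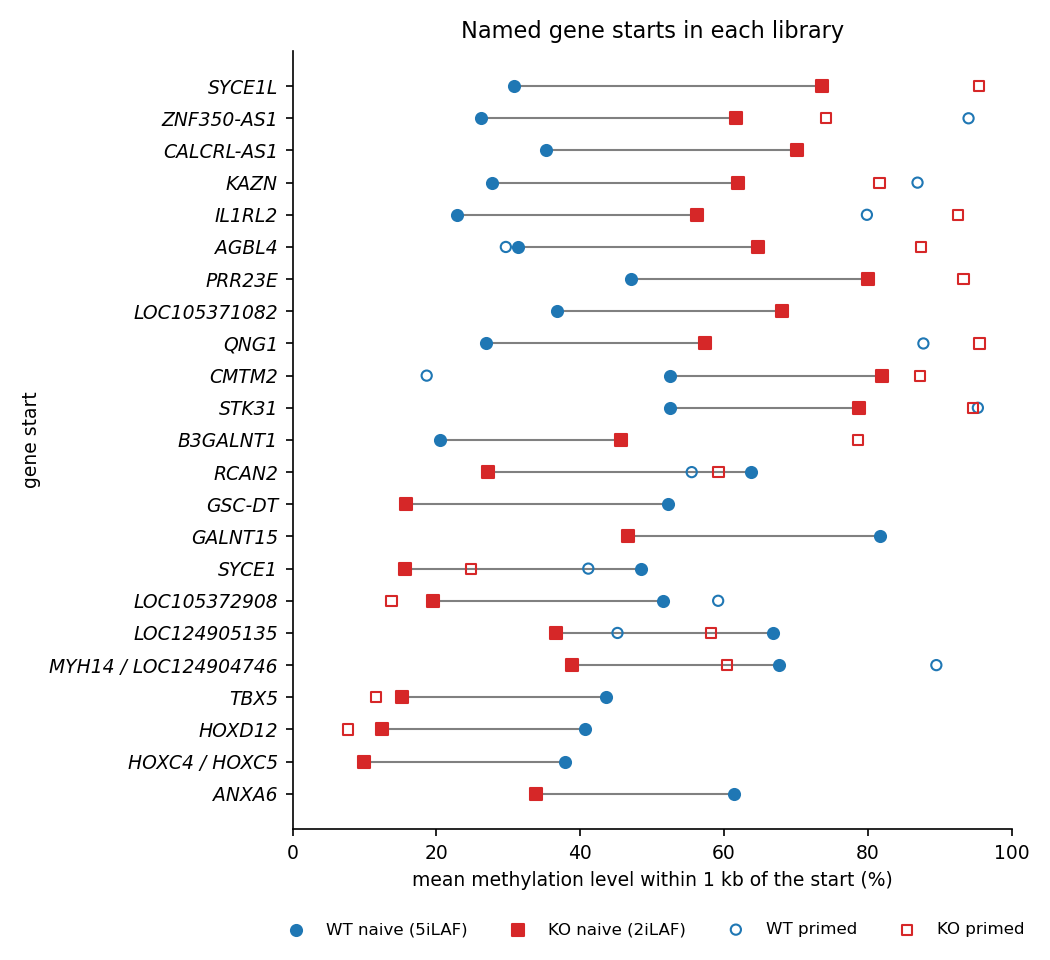
Mean methylation level (%, x axis) within 1 kb of each named gene start (y axis) in the WT naive, KO naive, WT primed and KO primed libraries; a grey line joins the naive libraries, and a primed point is left out where fewer than 5 cytosines had 10 reads. Starts higher in KO are drawn above those lower in KO, from SYCE1L (30.9% in WT and 73.6% in KO naive cells) at the top to ANXA6 at the bottom.

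The gene lists were read by counts. Of 39 HOX genes, which pattern the body axis, 11 could be tested. By the rule 3 were lower (HOXD12, and HOXC4 and HOXC5 with 1 shared start) and 0 higher, against 2.31% of all starts lower. The median difference was -8.45 points against -3.45 points over all starts. Primed levels, where measured, lay between 7.72% (HOXD12) and 40.2% (HOXB1), both in KO primed cells. All starts at a primed level of 0 to 20% and of 20 to 40% had means of -7.53 and -5.62 points. A lower level is thus not particular to HOX genes. HOXC4 and HOXC5 were placed at the same start, where 5 cytosines stood at 37.9% ± 18.4 in the WT and 9.87% ± 3.90 in the KO naive library. With unlisted cytosines filled in at 0 this start had 9 cytosines and -13.1 points, and no longer passed the rule. HOXA3 stood at 47.4% ± 22.1 and 23.1% ± 17.4, short of the rule. HOXA10, HOXA11, HOXD10 and HOXD11 had differences of 2.43 to 5.87 points, with the KO level above the WT level.

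The 5 tested regulators of the germ layers all had a lower mean level in KO naive cells, with a median of -14.8 points. Of all starts 62.0% were lower, as were 89 of the 104 at a primed level of 0 to 20%. The 104 starts had a mean of -7.53 points. Among the 5 regulators TBX5 alone had a measured primed level, 11.6% in KO cells. Whether the 5 belong with starts of low primed level is thus not known. TBX5 among the 5 passed the rule, as did 2.31% of all starts in this direction. PAX6, the master regulator of eye development, stood at 35.6% ± 21.2 in the WT and 18.6% ± 9.35 in the KO naive library, a difference seen on the plus strand (43.7% and 15.6%) and not on the minus strand (20.97% and 24.1%). PAX3, a regulator of neural crest and muscle, stood at 26.7% ± 12.1 and 11.9% ± 8.92. The 5 tested genes of the primed state also all had a lower mean level, to be read against the same shares, and 0 passed the rule, with a median of -8.01 points. They included ZIC5 (25.4% ± 15.4 in WT and 10.7% ± 10.5 in KO), SFRP2 (23.97% ± 12.8 and 11.3% ± 6.33) and OTX2 (18.5% ± 10.6 and 11.6% ± 7.75), of which ZIC5 and OTX2 are transcription factors and SFRP2 is a secreted Wnt modulator. Primed levels, where measured, were low: 3.97% in WT and 9.28% in KO primed cells at ZIC5, and 9.66% in WT primed cells at OTX2.

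Germline genes had 23 starts tested, with 1 higher and 1 lower, against 1.76% and 2.31% of all starts, which is near the background. Their median was 3.84 points, and 14 of them had the KO level above the WT level, against 38.0% of all starts. Starts with much methylation in primed cells had this direction on average. Not all tested germline starts were of this kind, with 5.93% in WT primed cells at HORMAD2. Of the 512 starts of any gene at a primed level of 80 to 100%, 211 were below 0, and the mean difference was 2.98 points. The direction is thus not particular to germline genes. STK31, a testis kinase gene, was higher, at 52.4% ± 25.4 in the WT and 78.8% ± 16.6 in the KO naive library, with primed levels of 95.3% and 94.6%. SYCE1, which encodes a central element of the synaptonemal complex, was lower, at 48.4% ± 10.3 and 15.6% ± 7.50. MSH4, a gene of meiotic recombination, stood at 41.8% ± 22.3 and 69.4% ± 11.9 over 27 cytosines, with fewer than 80% of them moving that way. DAZL, an RNA-binding regulator of germ cells, was at 76.4% ± 18.4 and 76.8% ± 17.5.

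Imprinted genes had 11 starts tested, 0 of which passed the rule in either direction, against 1.76% higher and 2.31% lower of all starts. With 11 starts, 0 calls is near these shares. The KO level was above the WT level at 9 of them, against 38.0% of all starts. Their median was 4.04 points, against -3.45 points over all starts. Direction also went with the primed level: of all starts, 106 of 166 were below 0 at 40 to 60%, and 211 of 512 at 80 to 100%. Imprinted starts had mixed primed levels, from 10.6% (MCTS2) to 98.6% (DIRAS3) in WT primed cells. Whether their direction differs from that of starts with like primed levels was not tested. MEG3 stood at 73.4% ± 14.9 in the WT and 83.7% ± 10.7 in the KO naive library, DIRAS3 at 74.4% ± 19.2 and 83.3% ± 13.4, and MEST at 15.5% ± 10.6 and 18.4% ± 9.25. MEST was at 42.0% in both primed libraries, so both naive libraries were below the primed ones there. Genes of the naive state had 4 starts tested and 0 called, with a median of 2.50 points; KLF17, a transcription factor of the early embryo, stood at 59.3% ± 13.6 and 46.7% ± 19.8, and DPPA5 at 32.3% ± 13.1 and 40.2% ± 13.0.

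Of 44 genes of glycosphingolipid synthesis, 2 could be tested. B3GALNT1, which makes the globoside that B3GALT5 extends, was higher, at 20.5% ± 15.4 in the WT and 45.7% ± 14.2 in the KO naive library (6 cytosines), and KO primed cells had 78.6%. With unlisted cytosines filled in at 0 its difference was 22.6 points and it no longer passed the rule. GBGT1, the Forssman synthase gene, stood at 28.2% ± 20.1 and 23.6% ± 18.9. The FGF-ERK list had 2 starts tested, at -5.97 points for FGFR2 and -3.68 points for DUSP6, and the trophoblast list 1, GATA2, at -5.67 points. The list of DNA methylation enzymes and cofactors had no start placed and was not analysed.

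Single cytosines were compared by Fisher's exact test (two-sided, Benjamini-Hochberg adjustment) on their reads, which sets 2 libraries and not the conditions side by side. With an adjusted p under 0.05 and 25 points or more between the levels, 4953 cytosines (0.682%) were higher and 3381 (0.466%) lower in KO naive cells. The strands of a CpG differed by 3.47 times the binomial variance in WT and 2.65 times in KO naive cells. With read counts scaled down by these ratios, Fisher's exact test called 0 higher and 0 lower, against 2538 and 1748 at an unadjusted p under 0.05. With 10 reads drawn per cytosine it also called 0 and 0, against 13542 and 10161 unadjusted.

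The naive difference was last read by the difference between the primed libraries, which share no library with it. The 234 regions that were higher in KO than in WT primed cells by the rule of size had a mean naive difference of 3.23 points ± 15.4, and 7.69% of them were also higher in KO naive cells, against 2.55% of the 19748 regions measured in all 4 libraries. Calls in the opposite direction were also more frequent there, with 2.99% lower in KO naive cells against 1.23% overall. The 115 regions lower in KO primed cells had -1.65 points ± 16.5, and 7.83% (9 regions) were also lower and 5.22% (6 regions) higher in KO naive cells. Most regions that differed between the genotypes in the primed state were thus not among those that differed between the naive libraries.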

How the data were processed

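Bisulfite libraries of genomic DNA were made with a methylation capture kit from H9 cells, with a stated conversion of 99%, per the labels' protocols. Positions are those of hg19 (GRCh37), per the submitters' notes on processing. Aligner, caller and duplicate handling: not given in the sources used here. Each library's deposited table holds read counts (total, context and methylated coverage) and the methylation level as a fraction, per the file headers. Levels were recomputed as methylated over context coverage, with at least 10 reads in both naive libraries, equal weight per cytosine and the strands kept apart. Python 3.11.15, numpy 2.4.6, pandas 2.3.3, scipy 1.17.1, numba 0.67.0 and matplotlib 3.10.9 were used. The calls were tried on simulated reads with binomial variance alone. With known differences of 30 and -30 points, 81.25% and 84% of the regions and 9.44% and 5.92% of the cytosines were called. The strands of a CpG differed by 3.47 (WT) and 2.65 (KO) times that variance, so the simulation does not give the error rate of the calls here.

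Gene starts were placed without coordinates of another build. RefSeq promoter sequences (GRCh38.p14, 300 bases) were placed where all listed cytosines stood at their CpGs, at least 8 CpGs matched, and 1 place fitted. Of 35116 sequences, 21319 had at least 8 CpGs and 5907 matched at 1 place; 4548 of these (77.0%) lay on the chromosome of the table, and 4282 that also had its strand and gene order were kept. With at least 12 matched CpGs, 99.5% lay on the right chromosome.

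Regions and starts were called by size (25 points, 80% of at least 5 cytosines) and carry no p-value. The text names the 10 largest in each direction with at least 10 cytosines, and members of lists that passed. The comparison, the members and the gene lists were chosen with earlier results of these data known. Filling in gave cytosines listed in 1 naive library 0 methylated reads at the coverage of a neighbour within 25 bp. The reading of strands apart was added after seeing the data. Intervals cover counting error only.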

Additional observations from a re-analysis of the deposited data

Results flagged for a closer look

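Of 22 named regions and starts with values in both primed libraries, 2 had a primed KO-minus-WT difference of at least 10 points in the direction opposite to the naive one. The start of ZNF350-AS1 was higher in KO naive cells (26.1% in WT and 61.7% in KO), while its primed difference was -19.8 points (94.0% in WT and 74.2% in KO). The start of LOC124905135 was lower in KO naive cells (66.8% in WT and 36.6% in KO), while its primed difference was 13.0 points (45.2% in WT and 58.1% in KO). The difference between the states was not tested, since each group held 1 library.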

How the results depend on the processing

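No paired analysis was possible because each group held 1 library. The mean difference of 0.873 points was 0.236 with a minimum of 5 reads, 1.24 with 20 reads, 1.21 with 10 reads drawn, 0.589 with strands merged, 0.792 with unlisted cytosines filled in at 0, 1.67 over cytosines with 10 reads in all 4 libraries, 0.544 weighted by reads and 0.611 over each library's own cytosines; it was positive in each of these. The 1142 higher and 817 lower regions of 40983 became 2572 and 2344 of 76795 with 5 reads, 185 and 116 of 10619 with 20 reads, 504 and 243 of 19748 over cytosines with 10 reads in all 4 libraries, 19 and 11 with a difference of 50 points, and 240 and 159 of 14134 with at least 10 cytosines. Other tile sizes, borders, merged strands, weighting and filling in left these counts within 1.5 times. Filling in kept the call of 1132 of the higher (99.1%) and 723 of the lower regions (88.5%). The cytosine calls of Fisher's exact test went to 0 and 0 with scaled reads and with 10 reads drawn; scaled or drawn reads leave fewer reads per test. The 35 higher and 46 lower starts became 25 and 23 of 1104 with at least 12 matched CpGs, 20 and 15 of 791 with 20 reads, and 45 and 41 of 2398 with filling in, so their balance turned in all 3. With 20 reads the difference at a primed level of 40 to 50% was 0.58 in place of -0.57 points. Including starts placed in a second pass between placed neighbours, which was added after seeing the data, gave 38 higher and 51 lower of 2362.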

Other observations

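Starts that were low in both primed libraries were looked at one by one. There were 65 starts at 20% or below in both primed libraries with at least 10 members, some of which share a window; they were picked after the values were seen. Of them, 58 had the KO naive level below the WT naive level, against 62.0% of all starts, with a median of -6.59 points. The choice is close to that of the 104 starts at a primed level of 0 to 20% above, of which 89 were below 0. It is thus no separate result. ABCB1, which encodes the drug efflux pump P-glycoprotein, stood at 24.7% ± 16.3 in the WT and 8.44% ± 6.73 in the KO naive library (32 cytosines), with primed levels of 12.3% and 14.3%. PAX9, a regulator of tooth and pharyngeal pouch development, stood at 26.8% ± 14.1 and 14.8% ± 11.4, with primed levels of 14.3% and 16.9%. DBX1, a homeobox gene of the spinal cord, stood at 29.4% ± 16.8 and 16.1% ± 11.3, with primed levels of 12.1% and 8.47%. NR2F2, an orphan nuclear receptor gene, went the other way, with 28.2% ± 15.3 in the WT and 41.0% ± 24.3 in the KO naive library, as did MSANTD4, with 14.04% ± 5.35 and 26.4% ± 4.80.

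Tested regions themselves seldom adjoined, with 5708 adjacent pairs among the 40983 regions. Runs of adjacent called regions numbered 16 for KO above WT and 6 for WT above KO, and the longest held 2 regions. Of all regions, 2.79% were called higher and 1.99% lower. Whether runs were more frequent than these shares would give was not tested. One run lay about 1.61 kb upstream of the start of H3C3, a replication-dependent histone gene, at 22.1% in the WT and 54.5% in the KO naive library (35 cytosines), with primed levels of 89.1% and 94.2%. Another lay 5.85 kb upstream of SKOR1, a transcriptional corepressor of the nervous system, at 65.3% and 39.0% over 14 cytosines. The Pearson r of the difference between neighbouring regions was 0.274 at 1 kb (5708 pairs), 0.109 at 10 kb and -0.020 at 500 kb, a description across regions that share libraries.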
